A study of Equus caballus with 34 samples.

Results

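The 10 arrays compared here hold RNA of granulosa cells from the dominant follicle of the mare, 5 from preovulatory follicles (PO) and 5 from early dominant follicles (ED), out of 34 arrays in the series. They were chosen by their titles, GC PO and GC ED, and all features that passed a filter on dim probes were compared between them. A feature is 1 gene symbol or 1 probe without a symbol. The series took granulosa cells (GC) and the theca wall (TW) of horse follicles at an early dominant, a late dominant (LD) and a preovulatory stage, on single-colour Agilent arrays with 1 sample per array. The design text calls the samples biological replicates, and stage and layer are the only factors named. Follicle sizes, the age and breed of the mares and any hormone given are not given in the sources used here, nor is whether 2 samples came from the same mare. If samples share mares, the p-values below measure only the spread between these samples. Levels are log2 of the processed spot intensity minus the 75th percentile of the array, so that 0 is a bright gene by the array's own standard. They are compared between arrays for 1 gene at a time and never between genes. The summed levels of marker lists below do add genes, and the brightest probes weigh most in them.

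Granulosa cells line the cavity of the follicle and have no blood vessels of their own. Under follicle-stimulating hormone (FSH) they divide, make inhibin and turn the androgens of the theca into estrogens with aromatase. The surge of luteinizing hormone (LH) then stops division, turns the cells towards progesterone, and starts a programme of prostaglandins, epidermal growth factor (EGF)-like ligands, hyaluronan matrix and proteases that ends in ovulation and the forming of the corpus luteum.

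On the 10 arrays between 64.8% and 74.0% of spots (ED) and between 66.8% and 72.9% (PO) were well above background. The 75th percentile of the processed signal ran from 869 to 1526 at ED and from 1141 to 1459.5 at PO, and 69 to 228 against 221 to 375 spots were saturated. Pearson's r between arrays, across genes, was 0.940 to 0.967 among the ED arrays, 0.906 to 0.978 among the PO arrays and 0.784 to 0.851 between the stages. The median SD of a feature was 0.41 at ED and 0.53 at PO on the log2 scale. Each of 5 slides carried 1 GC PO and 1 GC ED array, so that stage and slide were balanced. The number of arrays limits the precision.

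**Figure D1:**
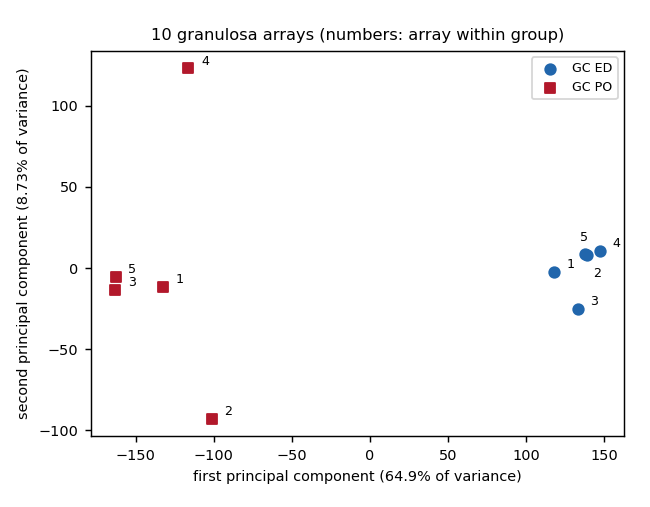
The 10 granulosa arrays on the first principal component (horizontal axis, 64.9% of the variance) and the second (vertical axis, 8.73%), with circles for GC ED, squares for GC PO and the array number beside each point. The stages separate on the first axis, and PO 2 and PO 4 lie at opposite ends of the second, at -92.8 and 123.2.

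PO array 2 and PO array 4 stood apart from the other PO arrays and from each other, as the plot of principal components shows. Values that rest on them are given with their numbers below. The array numbers follow the order of the deposit and name arrays only, and in all lists of values they run from array 1 to array 5.

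Of 23983 features tested, 11440 (47.7%) differed between the stages, 5683 (23.7%) higher at PO and 5757 (24.0%) lower, at a Benjamini-Hochberg adjusted p under 0.05 from limma. Among the 9097 features with a gene symbol, 2370 (26.1%) rose and 1799 (19.8%) fell, and these shares are the background for the counts of gene lists below. The other 14886 were single probes without a symbol, which may repeat a gene, so counts of features are not counts of genes. The change was at least 8-fold (log2 of 3) for 960 features that rose and 1015 that fell. The groups did not overlap, with every PO array above every ED array, for 4356 features (18.2%), and with every PO array below, for 4200 (17.5%). The median difference of all features was 0.04, and 0.12 for features with a symbol. With another background correction, normexp, the median of all features was -0.14, so that the values under that setting are read against it. Folds given below as "at least" hold for the processed signal and are no bounds under normexp.

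**Figure D2:**
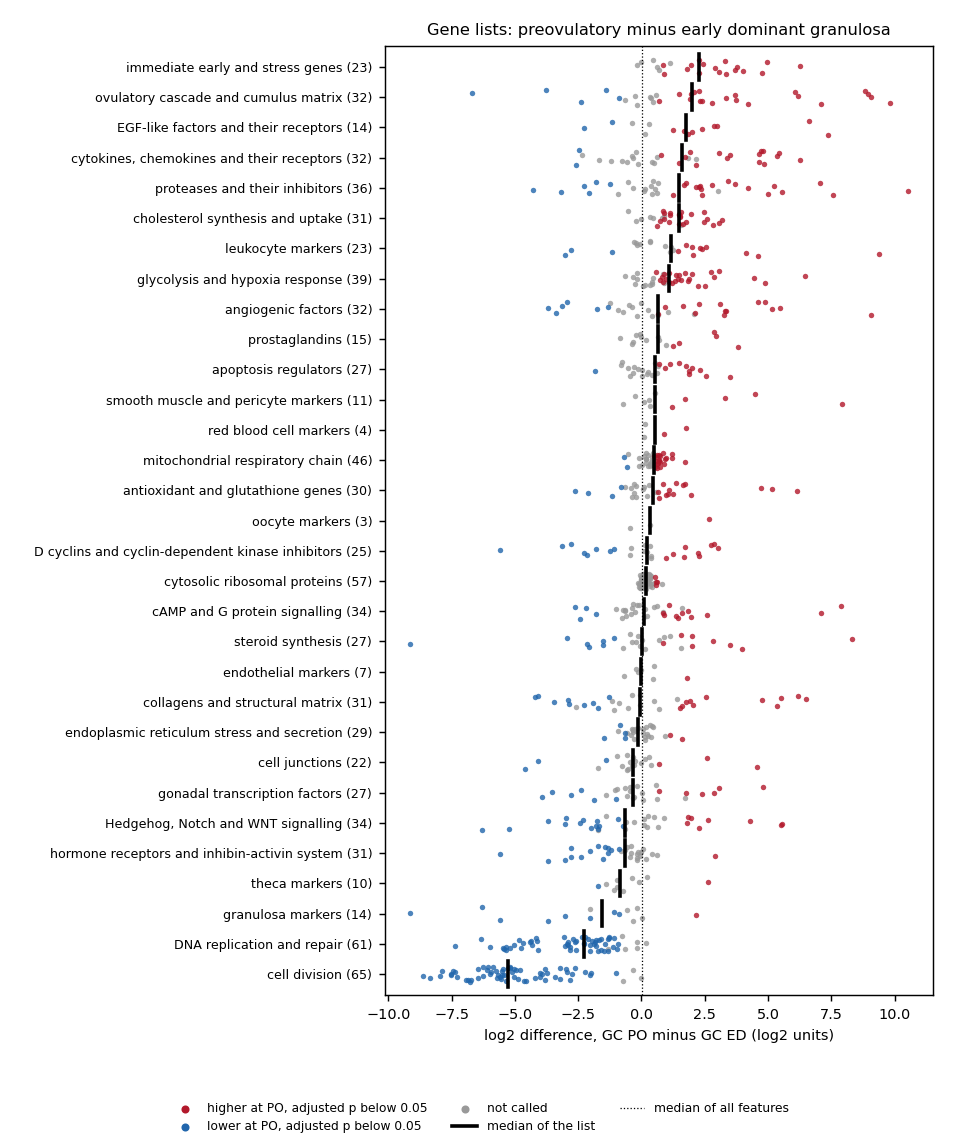
Log2 difference, GC PO minus GC ED, of each gene (points, horizontal axis in log2 units) in 31 gene lists (vertical axis, number of genes measured in brackets), with red for genes called higher at PO, blue for lower and grey for not called. Black ticks are list medians, from 2.29 for immediate early and stress genes down to -5.28 for cell division, and the dotted line is the median of all features, 0.04.

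The largest risers and fallers named here were picked among genes whose stages did not overlap, so lack of overlap is no further result. MMP1, interstitial collagenase, a protease that cuts fibrillar collagen, was among the genes that rose most. Its level was -8.14, -8.65, -9.44, -9.13 and -9.44 on the ED arrays, none of them well above background, and 1.86, 1.12, 2.30, -0.43 and 3.05 on the PO arrays. The rise was at least 390.2-fold (adjusted p = 4.1e-07). All 8 probes of the gene rose. DEFB4B, a defensin that kills microbes, was at -8.32, -9.11, -6.81, -9.49 and -9.04 at ED and at 3.11, -1.19, 0.93, 3.68 and 2.69 at PO. The stages did not overlap, and the difference was 10.40 ± 0.87 SE on the log2 scale, a size that is not exact because only 1 of 5 ED arrays was well above background. S100A12, a calcium-binding protein known from neutrophils, stood at -7.04, -6.93, -7.20, -5.63 and -8.16 at ED and 2.09, 3.13, 0.81, 2.55 and 3.37 at PO. All 5 of its probes rose, by 9.24 to 9.94, and 2 of 5 ED arrays were well above background.

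Other leading risers have unrelated functions. NIM1K, a protein kinase, rose at least 271-fold, from -8.18, -7.58, -8.47, -7.63 and -9.51 at ED, all at background, to 1.82, -3.60, 2.09, 2.57 and 2.36 at PO, with PO 2 the lowest of the PO arrays. CGA, the alpha subunit shared by LH, FSH and chorionic gonadotropin, which is made by the pituitary and by placenta, went from -8.30, -5.95, -8.50, -5.61 and -8.27 at ED to 2.45, 1.06, 3.77, -2.93 and 3.58 at PO. The PO arrays of CGA all lay above the ED arrays, PO 4 least so, and all 9 probes rose, by 8.43 to 9.09. OLR1, a scavenger receptor for oxidized lipoprotein, rose at least 116-fold (-8.17, -9.11, -9.52, -9.02 and -9.44 at ED and 0.07, 0.57, 0.24, -1.85 and 0.14 at PO). NPTX2, a secreted pentraxin, rose 8.50 ± 0.45 SE in log2 (adjusted p = 3.33e-07), with 1 of 5 ED arrays well above background. For the 7 risers named so far, the choice by non-overlap puts the PO array above the ED array on each of the 5 slides. The smallest of these differences was 2.68.

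Among the genes that fell most were HSD17B1, described with the steroid enzymes, and genes of the dividing cell. Outside these functions, HFM1, a helicase of meiotic crossing-over, fell at least 74.3-fold, from -1.06, -0.62, -1.67, -0.12 and 0.25 at ED to -8.14, -7.15, -8.90, -8.31 and -9.30 at PO, where no array was well above background. ANO2, a calcium-gated chloride channel, was at 0.37, 0.36, -1.92, -0.36 and 0.64 at ED and -8.51, -8.69, -8.95, -4.66 and -8.26 at PO, and TRIM10, a tripartite motif protein, at -0.15, -1.35, -1.59, -1.64 and 0.29 and -8.71, -8.42, -9.11, -6.35 and -8.72. For ANO2 and TRIM10 every PO array lay below every ED array, and 1 of 5 PO arrays, PO 4, was well above background. Their differences were -7.64 ± 0.80 and -7.38 ± 0.56 SE.

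Markers of the granulosa cell itself mostly fell, while most markers of the theca were not called. Of 14 granulosa markers measured, 1 rose and 8 fell, with a median difference of -1.56 against 0.12 for all features with a symbol. The fallers were HSD17B1, IHH, INHBB, FSHR, FST, AMHR2, CYP19A1 and INHBA, all described below. The riser was GATM, an enzyme of creatine synthesis, at -2.69, -2.47, -3.79, -2.53 and -4.13 at ED and 0.83, -1.32, -1.84, -1.80 and -0.67 at PO (log2 2.16 ± 0.54 SE, adjusted p = 0.00666). NR5A2, a nuclear receptor that granulosa cells need for ovulation, differed by 0.02 (95% interval -0.64 to 0.68) and was not called. The summed linear level of the 14 markers ran from 276 to 443 on the ED arrays and from 175 to 221 on the PO arrays, against 43.8 to 124 on the TW ED and 58.2 to 75.6 on the TW PO arrays. FST, INHBA, INHA and CYP19A1 were saturated on most or all ED arrays, which caps that sum. AMH and FOXL2, which define granulosa cells in many species, had no probe of that name here.

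Markers of neighbouring cells were measured in the same RNA. Of 10 theca markers, 1 rose (HHIP, an inhibitor of hedgehog ligands, 2.62 ± 0.58 SE, not called with normexp) and 1 fell (GLI1, a target of hedgehog signals, -1.73 ± 0.60 SE), and the call of GLI1 was lost with any of 8 arrays left out (adjusted p = 0.0516 to 0.0821). Their summed level was 12.0 to 41.3 at ED and 7.23 to 24.3 at PO, against 123 to 178 in the theca wall of the same stages. Of 7 endothelial markers only EGFL7 rose (1.80, not called with normexp), and the list summed to 0.0745 to 0.330 at ED and 0.242 to 0.370 at PO, against 4.81 to 14.3 in the theca wall. KDR, TEK, TIE1 and EMCN, which define endothelium, did not pass the filter on dim probes.

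Of 11 smooth muscle and pericyte markers 5 rose and none fell (median 0.54, and -0.01 with the normexp background). CNN1, calponin of contractile cells, was at -8.29, -8.69, -9.47, -7.91 and -7.85 at ED, never well above background, and at -1.37, 0.02, 0.44, -2.35 and 0.70 at PO. CNN1 rose at least 91.7-fold. DES, desmin, rose at least 11.3-fold, TAGLN, transgelin, 9.99-fold (log2 3.32 ± 0.36 SE) and ACTA2, smooth muscle actin, 2.34-fold. LMOD1, leiomodin of smooth muscle, rose by 1.73 ± 0.37 SE, and its sign turned with the normexp background. RGS5 and CSPG4, of pericytes, differed by 0.31 and -0.24 and were not called. MYH11, the muscle myosin, did not pass the filter. The summed level of the list was 0.561 to 0.815 at ED and 1.91 to 3.59 at PO, against 11.8 to 38.3 in the theca wall.

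Among 23 leukocyte markers 10 rose and 3 fell, with a median of 1.18 (0.11 with normexp). The risers are known mainly from myeloid cells, though CD163, CSF1R, LYZ, ITGB2 and CXCR2 of such cells were not called. Besides S100A12 they included CD14, a receptor for bacterial lipopolysaccharide (-3.54, -3.40, -3.88, -2.34 and -4.42 at ED and 0.67, 2.17, 1.73, 0.49 and 0.35 at PO, 24.2-fold), FCER1G, an adaptor of Fc receptors (4.14 ± 0.55 SE, 15 of 15 probes higher), CD68 of macrophage lysosomes (2.56) and the complement genes C1QA, C1QB and C1QC (2.39, 2.05 and 1.76, not called with normexp). The fallers were genes of lymphocytes, namely CD3D and CD3E of the T cell receptor (-2.77 ± 0.33 and -3.02 ± 0.57 SE) and MS4A1 of B cells (-1.16). CD2 and NKG7, also known from lymphocytes, were not called. The risers were 43.5% and the fallers 13% of the list, against 26.1% and 19.8% of all features with a symbol. In all 10 markers were not called, ITGAM and TYROBP did not pass the filter, and PTPRC, which marks all leukocytes, had no probe of that name here. The leukocyte list summed to 3.49 to 8.31 at ED and 8.86 to 19.5 at PO, against 11.8 to 21.4 in TW ED and 25.8 to 74.1 in TW PO. In bulk RNA more cells of a type and more RNA per cell cannot be told apart, here or in any result below. The part that theca, muscle or white blood cells have in the other results was not tested. Of 4 red cell markers 2 rose (HBA 1.76, HBA2 0.90, the latter not without any of 6 arrays, adjusted p = 0.054 to 0.0821), and of 3 oocyte markers 1 did (ZP4, 2.67, well above background on 1 of 5 ED arrays).

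FSH, activin, inhibin and steroids act on granulosa cells through the next group. Of 31 genes of hormone receptors and the inhibin-activin system 1 rose, 14 fell and 16 were not called, with a median of -0.64. FSHR, the FSH receptor, stood at 0.24, 0.39, 1.09, 0.11 and 0.60 on the ED arrays and at -2.33, -6.85, -1.96, -1.78 and -3.20 on the PO arrays. Every PO array was below every ED array, and PO 2 was far below the other PO arrays. FSHR fell by 3.71 ± 0.83 SE in log2 (4 of 5 PO arrays well above background, adjusted p = 0.00361), or 6.97-fold without PO 2, and the differences within slides were -7.24 to -1.89. LHCGR, the LH receptor, was at -1.90, -3.11, -3.54, -1.48 and -1.39 at ED and -3.64, -2.76, -3.54, -2.74 and -2.81 at PO. Those values overlapped, and the difference of -0.81 (95% interval -1.78 to 0.16) was not called (adjusted p = 0.152). Without ED 3, which was as low as the PO arrays, it was -1.13 and called (adjusted p = 0.0385).

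Inhibins and activins are dimers built from the subunits INHA, INHBA and INHBB, and follistatin (FST) binds activin. INHBB was at 0.94, -2.05, -1.94, -1.07 and -0.81 at ED and -7.14, -4.64, -8.08, -5.94 and -7.13 at PO, where 3 of 5 arrays were well above background. No PO array reached the lowest ED array, and the difference was -5.60 ± 0.70 SE (adjusted p = 9.33e-05). FST was saturated on all ED arrays, at 6.21, 5.81, 5.50, 5.96 and 5.54, and lay at 2.65, 2.02, 2.52, 4.47 and 2.33 at PO, at least 8.05-fold lower, with PO 4 the highest of the PO arrays. INHBA was also saturated on all ED arrays, was at 5.11, 4.86, 4.91 and 5.41 at PO, and was at least 1.86-fold lower at PO (4 PO values, since 1 spot was left out as an outlier). INHA was saturated on 5 ED and 4 PO arrays, so that no change can be measured. AMHR2, the receptor of anti-Müllerian hormone, was at -0.67, -0.89, -0.79, -1.11 and -0.56 at ED and -2.80, -2.57, -3.10, -2.53 and -3.22 at PO. It fell 4.10-fold with no overlap (log2 -2.04 ± 0.21 SE), and its 5 probes fell by 2.03 to 2.14.

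Some receptors of steroids and growth factors fell, and others were not called. ESR1, estrogen receptor alpha, was at 1.73, 2.20, 1.46, 1.92 and 1.66 at ED and -1.38, -1.26, -1.0, 0.91 and -0.28 at PO. All PO arrays were below all ED arrays (log2 -2.40 ± 0.41 SE). Also lower were NR3C1, the glucocorticoid receptor (-1.72), TGFBR3, a coreceptor of inhibin (-2.78), ACVR2A, an activin receptor (-1.32), and GHR, the growth hormone receptor (-1.50). IGFBP3, a carrier of insulin-like growth factors, was the only riser of the list (2.91 ± 0.36 SE). IGF1 itself fell by 1.34 ± 0.50 SE. PGR, the progesterone receptor that the LH surge induces in granulosa cells of many mammals, was at -0.27, -0.63, -0.77, -0.51 and -0.62 at ED and -1.23, -1.82, -0.64, -0.66 and 0.69 at PO. Its stages overlapped (difference -0.17, 95% interval -1.04 to 0.69, adjusted p = 0.744).

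**Figure D3:**
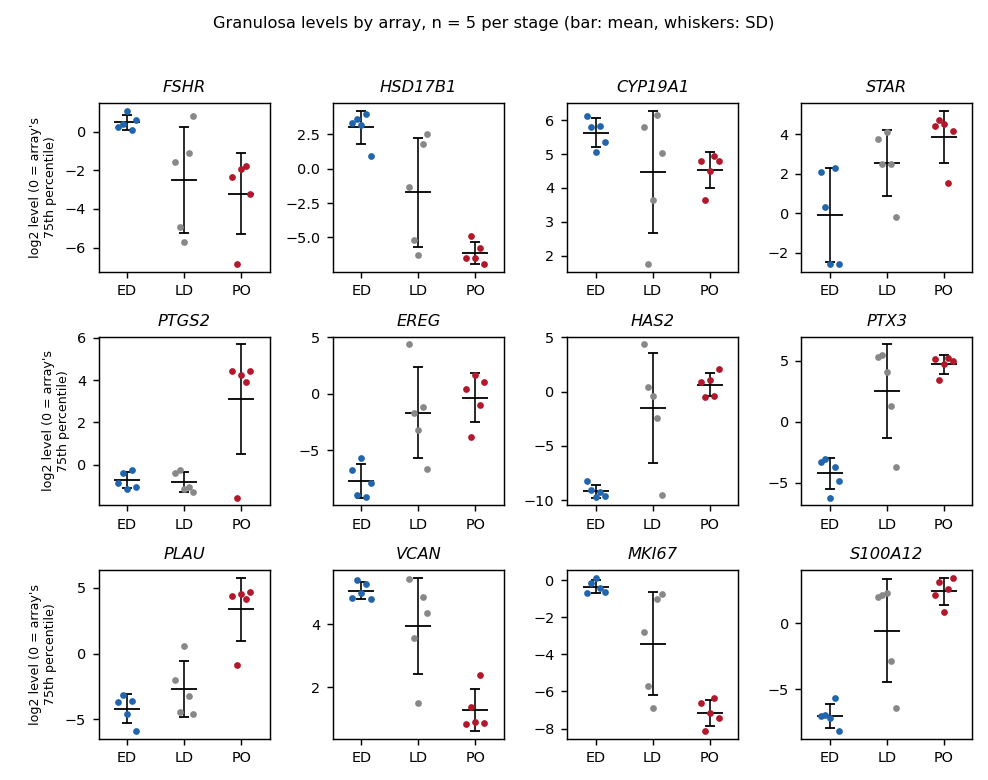
Log2 level (vertical axis, 0 is the 75th percentile of the array) of 12 genes on each granulosa array at the ED, LD and PO stage (horizontal axis), with 5 arrays per stage, bars at the mean and whiskers of 1 SD. FSHR, HSD17B1, VCAN and MKI67 lie lower at PO, and EREG, HAS2, PTX3, PLAU and S100A12 higher, each with no overlap between ED and PO, while PO 2 lies just below the ED range for PTGS2.

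Steroid enzymes changed in both directions. Of 27 genes of steroid synthesis 8 rose and 7 fell (median 0.02). Those shares, 29.6% and 25.9%, lay near the 26.1% and 19.8% of all features with a symbol. HSD17B1, which turns estrone into estradiol, was at 3.31, 3.63, 3.21, 4.01 and 0.94 at ED and -6.52, -4.90, -6.53, -5.80 and -6.91 at PO. There was no overlap, and it fell by 9.15 ± 0.57 SE in log2 (adjusted p = 9.61e-07), with 3 of 5 PO arrays well above background. CYP19A1, aromatase, was measured by 10 probes, and all 10 were lower at PO. The brightest probe, saturated on 4 of 5 ED arrays, gave 6.11, 5.81, 5.05, 5.82 and 5.35 at ED and 4.80, 3.64, 4.50, 4.94 and 4.80 at PO, a difference of -1.09 that saturation cuts short. The 8 probes with no saturated spot gave -3.89 to -3.13. POR, the reductase that feeds electrons to aromatase and the other microsomal steroid enzymes, fell 7.75-fold, from 6.18, 5.82, 5.63, 6.04 and 5.57 at ED to 2.34, 2.66, 3.47, 3.55 and 2.45 at PO. CYB5A, an electron carrier (-2.14), and STS, steroid sulfatase (-2.07), fell as well.

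STAR, which carries cholesterol to the inner mitochondrial membrane, was spread widely at ED, at 2.10, 0.34, -2.56, 2.28 and -2.54, and lay at 4.40, 4.74, 4.53, 1.56 and 4.16 at PO. PO 4 fell inside the ED range, and the other 4 PO arrays were above it. STAR rose 15.5-fold (log2 3.95 ± 1.05 SE, adjusted p = 0.00934), and its 4 probes rose by 3.95 to 5.34. Without PO 4 the rise was 23.1-fold, and without ED 3 or ED 5 it was 10.1-fold. FDX1, adrenodoxin, the electron donor of the first step of steroid synthesis, went from 3.10, 1.87, 1.17, 1.94 and 2.34 at ED to saturation on all 5 PO arrays, at least 11.3-fold. CYP11A1, the side-chain cleavage enzyme of that step, was at 3.86, 3.45, 3.40, 3.86 and 3.06 and 3.68, 5.40, 4.07, 3.97 and 3.95, and its difference of 0.69 (95% interval -0.03 to 1.41) was not called. HSD3B2, which makes progesterone, was saturated on all 10 arrays and gave no measure of change. CYP17A1, the androgen-making enzyme of the theca, differed by -0.74 (-2.10 to 0.63, not called). SULT1E1, which inactivates estrogen by sulfation, fell by 1.54 ± 0.35 SE.

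HSD11B1, which makes cortisol from cortisone, was at -8.30, -9.11, -9.76, -9.21 and -9.66 at ED, never well above background, and at -1.44, -1.82, 0.44, -0.15 and -1.47 at PO. It rose at least 70.7-fold (adjusted p = 4.86e-07). HSD11B2, which runs the opposite reaction, fell by 1.51 ± 0.51 SE in log2, with overlap and 2 of 5 PO arrays well above background. Its call was lost with any of 5 arrays left out (adjusted p = 0.064 to 0.0734). TSPO, a mitochondrial cholesterol-binding protein (2.0), and NR0B2, a nuclear receptor that represses others (2.01), rose. NR5A1, steroidogenic factor, was at -2.73, -2.78, -3.06, -2.17 and -2.89 at ED and -3.21, -2.08, -3.64, -3.03 and -3.95 at PO and was not called (-0.46, 95% interval -1.20 to 0.29), but without PO 2 it was (-0.74, adjusted p = 0.0424).

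Genes that make cholesterol or take it up mostly rose. Of 31 such genes 23 rose and none fell, with a median of 1.47 against 0.12 for features with a symbol. The stages did not overlap for 18 of the 23. Among all called features with a symbol they did not overlap for 3057 of 4169, so that count adds little to the calls. SCARB1, the receptor that takes cholesterol esters from high-density lipoprotein, was at -0.07, -0.76, -2.59, -0.67 and -1.20 at ED and 1.52, 3.18, 2.16, 1.77 and 2.02 at PO. All PO arrays lay above all ED arrays, a rise of 9.12-fold (log2 3.19 ± 0.46 SE). Among the late steps of synthesis TM7SF2 (3.07 ± 0.34 SE), HSD17B7 (2.81), NSDHL (2.58) and DHCR7 (2.48) rose. Of the earlier steps MVK, mevalonate kinase, rose by 2.48 and SQLE, squalene epoxidase, by 0.75. Outside the pathway enzymes, NPC1 of lysosomal cholesterol export (1.49) and LIPE, which frees stored cholesterol (1.58), rose, and the regulator SREBF1 was not called (-0.53).

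Prostaglandins made by granulosa cells are needed for ovulation, and PTGS2, which catalyses the committed step, is the classical target of the LH surge. PTGS2 lay at -0.85, -0.40, -1.12, -0.26 and -1.04 at ED and at 4.42, -1.55, 4.23, 3.92 and 4.41 at PO. PO 2 was below every ED array, and the other 4 PO arrays were far above them. The mean rise was 14.1-fold (log2 3.82 ± 1.01 SE, adjusted p = 0.00931), and its 3 probes, all called, rose by 3.82 to 9.55. Without PO 2 the brightest probe rose 31.5-fold. PTGES, which makes prostaglandin E, differed by 0.64 at its brightest probe (not called, 95% interval -0.16 to 1.45), while its 4 other probes were called and the highest rose by 2.47. Of the 15 prostaglandin genes measured 5 rose (33.3%, near the 26.1% of all features with a symbol) and none fell (median 0.64). The others were PTGFR, the receptor of prostaglandin F (-2.83, -2.49, -3.44, -3.29 and -0.63 at ED and -0.38, 0.39, 1.04, 0.00 and 1.05 at PO, log2 2.96 ± 0.52 SE), PTGIS, prostacyclin synthase (2.87), PTGES2 (1.47) and SLCO2A1, a prostaglandin transporter (1.26). HPGD, which degrades prostaglandins, did not pass the filter on dim probes.

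EGF-like ligands pass the LH signal from granulosa to cumulus cells. EREG, epiregulin, was at -6.70, -8.97, -5.70, -9.16 and -7.93 at ED, with 1 array well above background, and at 0.45, -3.86, 1.65, -1.0 and 1.08 at PO. No ED array reached a PO array, PO 2 was the lowest PO array, and the difference was 7.36 ± 1.02 SE (adjusted p = 0.000189, 3 of 3 probes), or 8.24 without PO 2. BTC, betacellulin, rose from -6.03, -5.50, -5.55, -6.19 and -4.73 to -2.76, -2.13, -2.94, -3.27 and -2.66, 7.22-fold, and HBEGF rose by 1.69. AREG, amphiregulin, did not pass the filter. Of the receptors, EGFR was at -4.70, -4.53, -4.08, -3.87 and -4.22 at ED and -5.10, -5.42, -6.14, -5.15 and -5.46 at PO (-1.17 ± 0.26 SE, 2 of 3 probes called, not called with normexp), and ERBB4 fell 4.88-fold. ERRFI1, which blocks the active EGF receptor, rose from -5.39, -9.11, -6.11, -5.68 and -5.22 to 0.10, -0.87, 1.43, -0.93 and 1.93, or by 6.63 ± 0.80 SE. The feedback inhibitors SPRY1 (2.97), SPRY2 (2.0), DUSP5 (2.39) and DUSP6 (1.82) rose too, so that 9 of 14 genes of the list rose and 2 fell (median 1.76).

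Genes of the ovulatory cascade and of the hyaluronan matrix around the oocyte split into risers and fallers. Of 32 measured 20 rose and 5 fell, with a median of 2.01. HAS2, hyaluronan synthase, was at -8.28, -9.11, -9.69, -9.29 and -9.62 at ED, never above background, and at 0.90, -0.49, 1.05, -0.41 and 2.04 at PO. The rise was at least 201-fold (adjusted p = 2.43e-07). PTX3, a pentraxin that links hyaluronan chains, rose 493-fold, from -3.35, -3.05, -6.23, -3.75 and -4.89 to 5.14, 3.38, 4.69, 5.26 and 4.98 (log2 8.95 ± 0.60 SE). TNFAIP6, which transfers heavy chains onto hyaluronan, was at -5.60, -5.84, 0.13, -7.34 and -6.31 at ED and -2.46, 0.55, -1.45, -1.10 and -1.80 at PO. ED 3 exceeded 4 of the 5 PO arrays, and the difference was 3.74 ± 1.21 SE (adjusted p = 0.0249). The call was lost with any of 5 arrays left out (adjusted p = 0.053 to 0.0649), and without ED 3 the difference was 5.02. CD44, a hyaluronan receptor, rose 72.0-fold with no overlap (6.17 ± 0.48 SE).

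Other proteins that bind hyaluronan fell. VCAN, versican, was at 4.83, 5.39, 5.0, 5.28 and 4.79 at ED and 0.83, 1.39, 0.91, 2.40 and 0.88 at PO. It fell 13.7-fold with no overlap (log2 -3.78 ± 0.31 SE, adjusted p = 6.49e-06), while ADAMTS1, a protease that cuts versican, rose from -4.08, -3.0, -4.70, -2.06 and -5.33 to 0.91, -1.39, 1.63, -1.0 and 1.68 (4.20 ± 0.77 SE). HAPLN1, the link protein, was at -0.07, -3.16, -3.78, -0.91 and -3.56 at ED and below background on all PO arrays, at least 23.6-fold lower. ITIH1, a heavy chain of the inter-alpha inhibitor that is linked to hyaluronan, fell by 2.37 ± 0.42 SE.

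Several signals and regulators of the cascade rose. EDN2, an endothelin that contracts smooth muscle and is induced in granulosa cells around ovulation, was at -6.16, -5.88, -6.49, -6.66 and -7.31 at ED and 4.13, -0.38, 4.63, -0.78 and 5.25 at PO. PO 2 and PO 4 were the lowest PO arrays but above all ED arrays, and all 6 probes rose, by 6.41 to 11.36. BDNF, a neurotrophin secreted into follicular fluid, rose by 8.84 ± 0.61 SE (-7.67, -7.17, -8.34, -6.32 and -7.75 at ED, 1 array above background, and 2.08, -0.89, 1.54, 2.60 and 1.61 at PO). RGS2, which damps G protein signals, rose 137-fold, and CEBPB, a transcription factor needed for luteinization, 67.6-fold (-4.03, -5.51, -6.70, -5.37 and -4.45 at ED and 0.66, 0.22, 1.15, 0.78 and 1.52 at PO). RUNX2 rose by 0.71 at its brightest probe and by up to 3.28 at its other 2, and the sign of the brightest probe turned with the normexp background. The call of the brightest probe was lost with any of 8 arrays left out (adjusted p = 0.0508 to 0.109). RUNX1, at -6.93, -6.16, -7.66, -7.19 and -7.08 and -6.02, -6.32, -6.70, -6.34 and -6.84, was not called (0.56, 95% interval -0.07 to 1.19), though without ED 2 it was (0.77, adjusted p = 0.0305). Among fallers, PPARG, a nuclear receptor of fat metabolism, went down by 1.41 ± 0.32 SE. NRIP1, a corepressor of nuclear receptors that is needed for ovulation, fell by 0.90 ± 0.33 SE (adjusted p = 0.0409), with stages that overlapped.

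Proteases open the follicle wall at ovulation. Of 36 proteases and inhibitors 18 rose, 6 fell and 12 were not called (median 1.47). PLAU, urokinase plasminogen activator, was at -3.67, -3.19, -4.61, -3.59 and -5.91 at ED and 4.38, -0.88, 4.57, 4.13 and 4.66 at PO. All PO arrays were higher, PO 2 by far the least, and PLAU rose 189.5-fold (log2 7.57 ± 1.01 SE, within slides 2.31 to 10.57), and without PO 2 by 8.63. PLAT, tissue plasminogen activator, rose from -6.14, -5.88, -6.63, -4.70 and -7.42 to -0.21, -2.20, 0.60, -1.98 and -0.84, or by 5.23 ± 0.61 SE, with 3 of 5 ED arrays well above background. PLAUR, the urokinase receptor, rose by 5.55, and 5 of 5 probes were higher. MMP9, a gelatinase, and CTSL, a cathepsin, rose by 2.15 ± 0.68 and 2.26 ± 0.83 SE. Of the inhibitors of plasminogen activators, SERPINB2 rose 32.0-fold at its brighter probe (-2.08, -0.70, -2.44, -2.22 and -2.38 and 1.83, 4.90, 4.24, -0.21 and 4.41). ADAMTS4 (3.68), ADAMTS8 (3.42) and MMP19 (2.35) rose. ADAMTS6 (-4.27 ± 0.58 SE), ADAMTS12 (-3.16), MMP11 (-2.07), and the inhibitors RECK (-2.28) and TIMP4 (-1.80) fell. TIMP1 rose by 1.26.

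Of the 31 lists, that of cell division had the median farthest from 0. Of 65 genes of mitosis 62 fell and none rose, with a median difference of -5.28, and for 61 of the 65 no PO array reached the lowest ED array. The background shares were 19.8% lower and, without overlap over all features, 17.5%. NDC80, which ties kinetochores to the spindle, was at 0.43, 0.23, 0.39, 0.26 and 0.15 at ED and -8.46, -8.87, -7.73, -6.64 and -8.59 at PO, where no array was well above background. The ED arrays lay close together, and NDC80 fell at least 140.2-fold (adjusted p = 1.7e-07). CENPF, another kinetochore protein, fell at least 120.2-fold (-0.21, 0.08, 0.41, 0.33 and -0.34 and -8.33, -8.92, -8.74, -7.54 and -9.36), and SGO1, which guards sister chromatid cohesion, at least 43.2-fold. ASPM of the spindle poles was at 0.98, 1.80, 1.98, 2.45 and 0.98 and -6.98, -6.44, -6.47, -4.66 and -6.99 (log2 -7.94 ± 0.47 SE).

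MKI67, the proliferation marker of pathology, was at -0.72, -0.15, 0.11, -0.41 and -0.66 at ED and -6.64, -8.14, -7.19, -6.36 and -7.41 at PO, with 1 PO array well above background. It fell by 6.78 ± 0.34 SE, and within slides by 5.92 to 7.99. CCNB1, cyclin B, which drives entry into mitosis, was at 2.42, 2.28, 2.84, 2.70 and 1.81 at ED and -4.76, -2.08, -4.03, -0.75 and -4.94 at PO. PO 4, at the top of the PO arrays, was still below every ED array, and CCNB1 fell 52.8-fold (-5.72 ± 0.73 SE). Its kinase CDK1 fell by 5.44, the kinases AURKB, BUB1, PLK1 and TTK by 5.51, 5.35, 2.83 and 7.53, the motors KIF20A and KIF15 by 7.88 and 7.51, and the transcription factor FOXM1 by 5.05. KIF18A (-0.74, 95% interval -2.14 to 0.66) and AURKA (-0.34, -1.58 to 0.90) were not called, and neither was BUB3 (0.00, -0.42 to 0.42). For KIF20A, PO 4 was at -4.72 and the other PO arrays at -8.40, -8.98, -8.79 and -9.46.

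**Figure D4:**
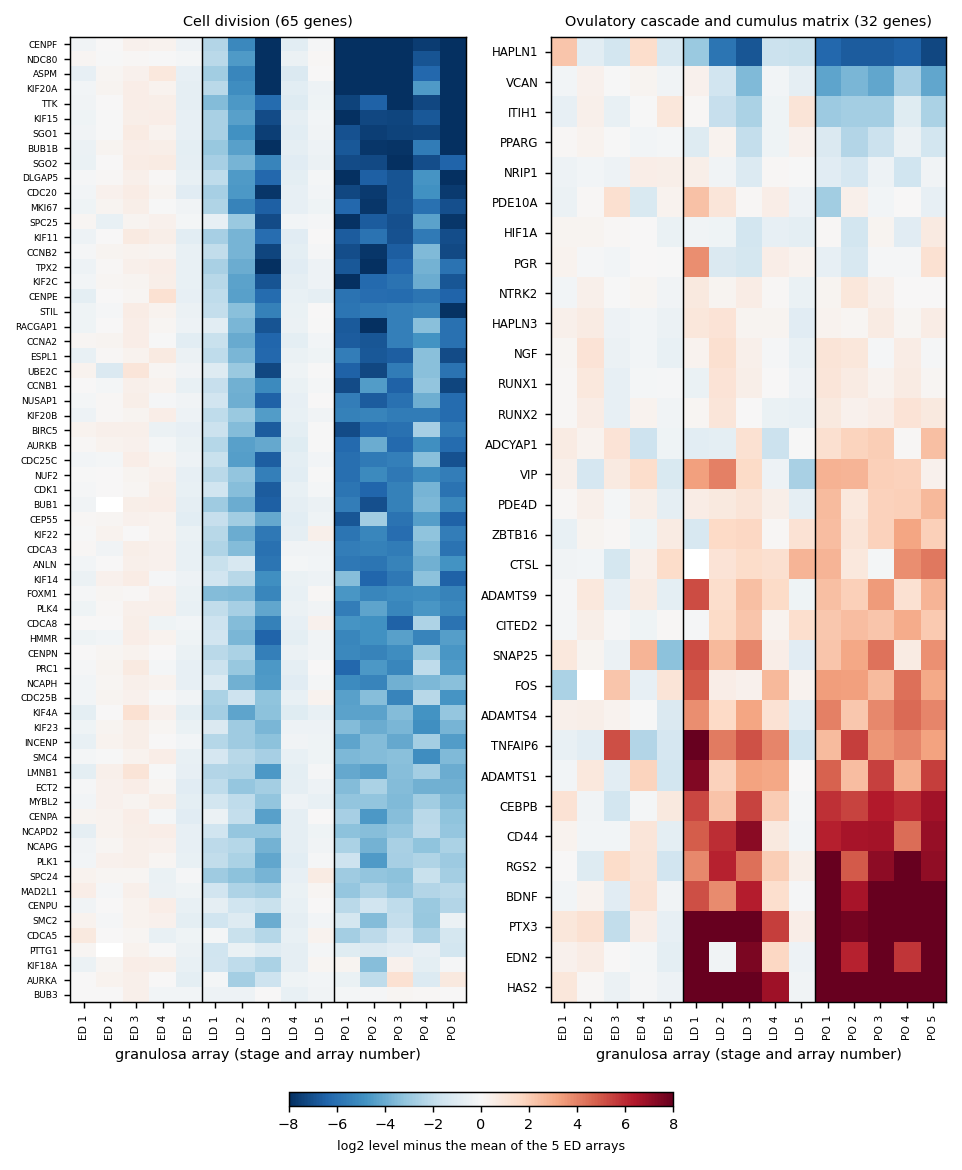
Log2 level minus the mean of the 5 ED arrays (colour scale from -8 in blue to 8 in red, values beyond it at its ends, white also where a spot was left out) for 65 genes of cell division and 32 of the ovulatory cascade (rows) on the 15 granulosa arrays (columns). The PO columns are blue for 62 cell division genes, least so on PO 4, and for these genes LD 4 and LD 5 look like the ED columns while LD 1, LD 2 and LD 3 run towards PO.

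Genes that copy and repair DNA mostly fell as well, with a median nearer to 0. Of 61 measured 55 fell and none rose (median -2.29), and the stages did not overlap for 51. E2F8, a transcription factor of the S phase, fell at least 79.1-fold (-0.63, -0.49, -0.12, 0.02 and -1.17 at ED and -8.33, -6.54, -7.79, -8.39 and -8.12 at PO, all at background). CDC45 of the replication helicase (-5.98), MCM10 (-5.35) and RRM2, which makes deoxynucleotides (-4.85), fell strongly, while the abundant clamp PCNA fell by 1.11 ± 0.24 SE and the helicase subunits MCM3, MCM4, MCM6 and MCM7 by 1.48, 1.82, 2.13 and 1.87. FANCI and FANCD2 of crosslink repair (-6.35 and -5.45) and BRCA1 (-4.13) went the same way, as did UHRF1, which maintains DNA methylation at replication (-5.45).

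Among 25 D cyclins, kinase inhibitors and related genes 9 rose and 8 fell (median 0.24). CCND2, cyclin D, which FSH induces in granulosa cells, was at 5.80, 5.52, 5.29 and 5.08 at ED (4 values) and 3.11, 4.44, 3.68, 3.50 and 3.40 at PO. It fell 3.47-fold with no overlap (log2 -1.80 ± 0.30 SE), and CCND3 fell 4.43-fold. CDKN1A, an inhibitor of cyclin-dependent kinases, was at -6.31, -4.87, -7.21, -6.49 and -8.04 at ED and -5.43, -5.41, -5.06, -4.29 and -4.32 at PO. Its stages overlapped (log2 1.68 ± 0.52 SE, adjusted p = 0.0203), and CDKN1B, a related inhibitor, at -3.20, -4.25, -4.22, -4.22 and -4.22 and -4.05, -4.23, -4.73, -4.29 and -4.92, was not called (-0.42, 95% interval -1.02 to 0.18). GADD45A, GADD45B and GADD45G, of growth arrest (2.29, 1.73 and 2.23), BTG2, an inhibitor of proliferation (2.73), CCNG1 (2.88) and E2F5, a transcription factor of the cell cycle (3.02 ± 0.40 SE), rose. The fallers CDKN3 (-5.60), CDKN2C (-2.28) and CDKN2D (-2.77) carry the names of inhibitors, and CDKN3, a phosphatase, and RBL1 (-3.12) are known to be made by dividing cells.

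Immediate early genes, which respond to hormone signals within minutes, formed the list with the highest median, 2.29 over 23 genes, of which 17 rose and none fell. IER3, a survival factor, was at -4.93, -5.28, -4.53, -5.99 and -6.14 at ED and 0.98, -0.17, 1.73, 0.00 and 1.96 at PO. It rose 77.4-fold with no overlap (log2 6.27 ± 0.48 SE). FOSL2, a partner of JUN proteins in transcription, was at -5.75, -5.07, -5.71, -5.89 and -5.99 and -0.89, -1.06, -0.47, -0.55 and -0.56 (log2 4.97 ± 0.23 SE), and its relatives FOSL1, JUNB and FOS rose by 4.03, 4.78 and 3.32. JUN was not called (0.63). NR4A1, an orphan nuclear receptor that LH induces, went from -1.98, -0.92, -1.61, -2.10 and -2.11 to 0.94, -0.13, 2.18, 0.82 and 2.79, 8.36-fold. MYC (2.92), EGR1 (2.44), ATF3 (3.70) and the phosphatases DUSP1 and DUSP2 (3.30 and 3.78) rose as well.

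The cyclic AMP pathway, through which FSH and LH act, had no common direction. Of 34 genes 11 rose and 4 fell (median 0.11), or 32.4% and 11.8%, against 26.1% and 19.8% of all features with a symbol. RGS16, a brake on G proteins, went from -5.57, -6.96, -6.54, -6.12 and -6.20 to 1.34, 1.41, 2.63, -0.21 and 2.78, a difference of 7.87 ± 0.52 SE. PDE4D, which degrades cyclic AMP (1.94), the regulatory subunit PRKAR1A (1.58) and CREM (1.82) rose. PKIB, an inhibitor of protein kinase A, rose by 2.60 ± 0.96 SE (adjusted p = 0.0443), with stages that overlapped. RAPGEF3, a cyclic AMP sensor (-2.61 ± 0.68 SE), ADCY3, an adenylyl cyclase (-2.41), PDE7A (-2.21) and PDE7B (-1.78) fell.

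Of 39 genes of sugar metabolism and of the response to low oxygen 26 rose and none fell (median 1.09). ENO2, an enolase, was at -6.71, -5.87, -6.01, -6.07 and -5.04 at ED and 0.44, 1.54, -0.26, 0.62 and 0.34 at PO. It rose by 6.47 ± 0.37 SE in log2 with no overlap (4 of 5 ED arrays well above background, adjusted p = 5.97e-07). ADM, adrenomedullin, a vasodilator, rose 29.4-fold, from -0.85, -0.02, -1.91, -0.66 and -2.48 to 3.52, 3.35, 4.19, 2.84 and 4.56, and EGLN3, an oxygen sensor, by 4.45. PDK3 and PDK4, which hold back pyruvate from the mitochondria, rose by 3.07 and 2.88, LDHA by 1.72 and the glucose transporter SLC2A3 by 2.25. VEGFA, the main growth factor of vessels, was at -1.59, -1.84, -1.73, -1.90 and -2.78 at ED and -0.81, -0.83, -1.72, -3.22 and -1.08 at PO and overlapped (0.44, 95% interval -0.56 to 1.43, 0 of 10 probes called). Without PO 4, its lowest array, the difference was 0.86 and called (adjusted p = 0.0349).

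Of 46 genes of the mitochondrial respiratory chain 21 rose, 2 fell and 23 were not called, with a median of 0.49. Among the larger rises were ATP5F1D of the ATP synthase (1.74 ± 0.29 SE), UQCRFS1 (1.21), NDUFA2 (1.21) and SDHA (0.93). ATP5F1C fell by 0.69. NDUFS1 fell by 0.58 ± 0.21 SE, a call lost with any of 9 arrays left out (adjusted p = 0.0583 to 0.0882). With quantile normalization the median of that list was 0.14. Ribosomal protein genes, 57 measured and 11 of them with only a bound because of saturation, had 4 risers, among them RPL35 (0.62), RPS9 (0.59) and RPL19 (0.57), no faller and a median of 0.16. The calls of RPL35, RPS9 and RPL19 were lost with quantile normalization and in the deposited value table.

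Factors that act on vessels rose or fell one by one. Of 32 genes 14 (43.8%) rose and 6 (18.8%) fell, against 26.1% and 19.8% of all features with a symbol. Their median was 0.65, and -0.07 with normexp. NRP1, a receptor of VEGF and semaphorins, was at -5.88, -5.06, -5.74, -5.64 and -4.99 at ED and 0.06, -0.97, -0.05, -0.42 and -0.20 at PO. It rose 35.4-fold with no overlap (log2 5.15 ± 0.27 SE). ANGPT2, which loosens vessel walls, rose from -5.40, -5.93, -6.85, -5.86 and -7.37 to 1.15, -5.09, -0.17, -1.19 and 1.27, with PO 2 just above the ED range, and ANGPT1, its stabilising counterpart, was at -6.34, -7.94, -7.66, -7.30 and -7.16 and -1.69, -2.07, -2.14, -6.60 and -0.89, with PO 4 among the ED values (4.60 ± 0.90 SE, and 5.58 without PO 4). THBS1, an inhibitor of vessel growth (3.25), ANGPTL4 (3.09), PDGFD (3.34), VEGFC (2.11) and ECE1, which activates endothelins (3.30), rose. SEMA3E (-3.70), SEMA3C (-2.95), EFNB2 (-3.38), PDGFC (-3.15) and PGF (-1.77) fell.

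Of 32 cytokine and chemokine genes 16 rose, 2 fell and 14 were not called (median 1.60). TNFRSF12A, the receptor of TWEAK, was at -2.31, -2.69, -2.76, -3.34 and -4.36 at ED and 2.90, 3.55, 3.73, 2.47 and 3.29 at PO, 77.8-fold higher with no overlap (log2 6.28 ± 0.39 SE). CXCR4, a chemokine receptor, went from -3.24, -2.27, -1.42, -1.06 and -0.40 to 3.18, 2.55, 3.26, 2.74 and 3.18 (25.3-fold). The chemokine CCL2, which draws monocytes, was at -6.48, -5.57, -6.57, -6.96 and -9.20 and -3.30, 1.09, 0.58, -2.27 and -3.68 (6 of 6 probes, 4.68 to 5.58). IL1RN, an antagonist of interleukin signals (5.35 ± 0.98 SE), SAA1 of the acute phase (4.79), CXCL1 (4.84), NFKBIA (3.39) and SOCS3 (3.05) rose, and CCL5 (-2.59) and TNFRSF21 (-2.49) fell. TNF was not called (-0.34). The summed leukocyte markers given above were higher on the same PO arrays, and their part in these rises was not tested.

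Matrix genes changed in both directions. Of 31 collagens and structural matrix genes 11 rose and 9 fell (median -0.07), or 35.5% and 29%, against 26.1% and 19.8% of all features with a symbol. COL4A1, a common chain of basement membrane collagen, was at -0.28, 0.78, -2.13, 0.95 and -0.18 at ED and 4.55, 4.09, 4.43, 5.0 and 4.84 at PO, and COL4A2, its partner, at -5.35, -3.76, -6.83, -5.08 and -4.07 at ED and -0.02, -0.89, 0.61, 1.42 and 0.53 at PO. Both rose with no overlap (log2 4.75 ± 0.51 and 5.35 ± 0.59 SE). The other chains COL4A4, COL4A5 and COL4A6 fell by 4.20, 3.47 and 1.71, and so did the laminin chains LAMA1, LAMA2 and LAMA4 (-2.91, -2.27 and -4.08) and HSPG2, perlecan (-2.85). LAMA5 (1.77), LAMC1 (1.53), NID2, nidogen (5.50 ± 0.94 SE), and FN1, fibronectin (1.93), rose. LOX, which crosslinks collagen, was below background on all ED arrays and at -3.46, -0.36, -3.28, -2.24 and -4.49 at PO, at least 19.2-fold higher, and LOXL2 rose 71.8-fold.

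Of 22 genes of cell junctions 3 rose and 3 fell, 13.6% each way, below the 26.1% and 19.8% of all features with a symbol. OCLN, occludin of tight junctions, was at -3.25, -2.87, -2.58, -3.67 and -3.32 at ED and -8.56, -5.94, -8.95, -5.66 and -9.59 at PO (-4.60 ± 0.72 SE, 2 of 5 PO arrays well above background). CDH11 (-4.09) and TJP1 (-1.39) also fell, CLDN4 rose from -6.43, -6.35, -7.02, -6.95 and -7.92 to -2.15, -4.57, -2.34, -1.44 and -1.34, and CLDN11 and CLDN12 rose by 2.59 and 0.69. GJA1, the main gap junction protein of granulosa cells, was not called (-0.33, 95% interval -1.09 to 0.43).

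Hedgehog, Notch and WNT genes had 8 risers and 14 fallers of 34 (median -0.63). Those shares were 23.5% and 41.2%, against 26.1% and 19.8% of all features with a symbol. IHH, the hedgehog ligand that granulosa cells send to the theca, was at -1.69, -2.31, 0.85, -1.41 and -4.73 at ED and -8.67, -8.70, -7.74, -8.53 and -7.19 at PO, where 1 array was well above background. There was no overlap, and IHH fell by 6.31 ± 0.82 SE (adjusted p = 0.00012). DHH, a second ligand, fell by 3.69 and SMO, which carries the signal into the cell, by 2.42. Of the secreted WNT antagonists, SFRP4 fell 37.6-fold (5.37, 5.05, 5.05, 5.46 and 2.07 at ED and 0.07, -1.61, -1.15, 0.33 and -0.81 at PO), while SFRP2 rose by 5.55 and SFRP1 by 1.95. DLL4, a Notch ligand, rose by 2.27 ± 0.49 SE, and HEY2, a target of Notch, fell by 3.04 ± 0.39 SE. The calls of DLL4, FZD4, WNT2, SFRP1 and SFRP2 were lost with normexp. FZD4, a WNT receptor, was below background on all ED arrays and rose at least 10.8-fold, and WNT2 rose by 4.28.

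Among 27 gonadal transcription factors 6 rose and 6 fell (median -0.35). Each share, 22.2%, lay near the 26.1% higher and 19.8% lower of all features with a symbol. WT1, a factor of immature granulosa cells, was at -2.91, -2.52, -1.45, -3.08 and -0.72 at ED and -6.52, -4.92, -5.85, -5.68 and -7.28 at PO (-3.92 ± 0.54 SE, 3 of 3 probes). FOXO1, which LH signals repress, fell 11.5-fold, from 1.55, 1.53, 1.47, 1.78 and 2.67 to -2.47, -1.20, -2.32, 0.11 and -2.73, with PO 4 the highest of the PO arrays. GATA4 was at -3.35, -3.41, -4.11, -4.81 and -3.81 and -6.44, -5.06, -6.10, -5.04 and -6.22 (-1.87 ± 0.38 SE). IRX3 (4.79 ± 0.68 SE), IRX5 (2.88), CITED1 (3.06), NR2F6 (1.75) and CITED2 (2.38) rose, and GATA6 was not called (-0.47).

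Antioxidant genes rose in 14 of 30 cases and fell in 4 (median 0.44). The median moved with quantile normalization and in the deposited value table, and its lowest value over all alternatives was 0.11. GPX3, a secreted glutathione peroxidase, was at -4.98, -5.20, -4.55, -6.22 and -3.61 at ED and 0.33, 0.51, 2.16, 2.93 and 0.27 at PO. It rose 71.0-fold (log2 6.15 ± 0.61 SE, 6 of 6 probes). SOD2, the mitochondrial superoxide dismutase, rose 26.6-fold (1.34, 0.03, 0.14, -0.76 and 0.01 and 5.16, 3.75, 4.86, 5.51 and 5.15, 10 of 10 probes), and GSTA1, a glutathione transferase, was saturated on all PO arrays and rose at least 35.4-fold. HMOX1, heme oxygenase (-2.62 ± 0.44 SE), and GCLC, which makes glutathione (-2.10), fell. TXN2, the mitochondrial thioredoxin, and GSS, glutathione synthetase, rose by 1.96 and 1.70, and GPX8 and NFE2L2, a regulator of antioxidant genes, fell by 1.18 and 0.81.

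Few genes of the endoplasmic reticulum were called, with 2 of 29 higher, 4 lower and a median of -0.14. SDF2L1 (1.59 ± 0.31 SE) and PPP1R15A (1.13) rose, and HERPUD1 (-1.48), PDIA4 (-0.85), HYOU1 (-0.66) and the chaperone CALR (-0.65) fell. Of 27 apoptosis regulators 11 rose and 1 fell (median 0.55). Risers included the survival factors BCL2L1 (below background on all ED arrays and at -4.30, -5.98, -5.59, -4.02 and -4.81 at PO, at least 4.26-fold), MCL1 (-0.35, -0.59, -0.25, -0.77 and -0.54 and 1.68, 0.73, 2.42, 1.97 and 2.34, 5.02-fold), BCL2A1 (2.56), CFLAR (2.01) and XIAP (1.76), and also BNIP3 (1.88), which favours cell death. BAX was not called (0.66).

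The PO arrays were not alike. PO 2 was the lowest of the PO arrays for PTGS2, PLAU, FSHR, EREG, ANGPT2, NIM1K and AGPAT4, an enzyme of phosphatidic acid synthesis (1.20, -2.54, 0.94, 1.60 and 0.92 at PO against -5.54, -6.23, -7.69, -6.09 and -6.43 at ED). PO 4 was the lowest for STAR, CGA and ANGPT1 and the highest for FST, FOXO1, KIF20A and CCNB1, where high is the side of the ED arrays. With both arrays left out together, an alternative chosen after these data were seen, 12470 features were called, 5954 higher and 6516 lower, against 11440 with them. Some further genes named above with a measured difference were well above background on only part of the arrays of their dimmer stage, so that those sizes are not exact. They were above it on 1 of 5 such arrays for LMOD1, CD3E, KIF20A, PKIB, RAPGEF3, EGLN3, ANGPT1, SOCS3 and DLL4; on 2 for CGA, PTGIS, UHRF1, ATF3, PDE4D, PDE7A, IL1RN, COL4A6 and CFLAR; on 3 for HHIP, FCER1G, IGFBP3, HBEGF, EDN2, RUNX2, ADAMTS4, ADAMTS6, MMP11, TTK, CDC45, FANCI, CDKN1A, DUSP2, CCL2, CXCL1, CLDN4, SMO and BCL2A1; and on 4 for C1QA, C1QB, ERRFI1, TNFAIP6, PLAUR, ADAMTS12, RECK, TIMP4, ASPM, KIF15, FANCD2, RGS16, ANGPT2, SFRP1, WT1, GATA4, AGPAT4 and P4HA3.

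Besides those described above, the calls of some genes were lost with 1 array left out. A single array did so for RPL35 (adjusted p up to 0.0562). Any 1 of 2 arrays ended the call of MMP9 and VEGFC (adjusted p up to 0.0555). Any 1 of 3 arrays ended the call of RPL19 (adjusted p up to 0.0645). Any 1 of 4 arrays ended the call of ATP5F1C (adjusted p up to 0.0702). Any 1 of 5 arrays ended the call of IGF1, CLDN12 and NFE2L2 (adjusted p up to 0.104). Any 1 of 6 arrays ended the call of NRIP1 and RPS9 (adjusted p up to 0.0976). Any 1 of 7 arrays ended the call of CTSL (adjusted p up to 0.0989). Any 1 of 8 arrays ended the call of PKIB and PDIA4 (adjusted p up to 0.103). Any 1 of 9 arrays ended the call of HYOU1 (adjusted p up to 0.104). With the normexp background 47 of the genes called above were not called. They were ATP5F1C, BCL2A1, BCL2L1, C1QA, C1QB, C1QC, CDKN1A, CFLAR, CLDN11, CLDN12, COL4A6, DES, DLL4, DUSP5, DUSP6, EFNB2, EGFL7, EGFR, FOSL1, FZD4, HBA, HBA2, HBEGF, HHIP, HSD11B2, HYOU1, IGFBP3, LAMA5, LIPE, LMOD1, MMP9, MYL7, PDE4D, PDE7A, PDGFD, PKIB, PTGIS, RUNX2, SAA1, SFRP1, SFRP2, SLCO2A1, SOCS3, TNFAIP6, WNT2, XIAP and ZP4, at -0.62 to 1.29.

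Leaving out 1 array moved the difference of 38 genes called above by more than 1.5 times. Without ED 1 the log2 difference was 5.11 for EGLN3, 2.47 for FOS and 5.78 for GSTA1. Without ED 2 the log2 difference was 5.93 for ERRFI1. Without ED 3 the log2 difference was 2.38 for CITED1, 4.05 for FOS and -5.63 for IHH. Without ED 4 the log2 difference was 6.20 for NID2, 4.54 for STAR and 3.15 for TNFAIP6. Without ED 5 the log2 difference was -2.37 for GLI1, 4.31 for GSTA1, -7.03 for IHH, 4.56 for NID2, -7.43 for NOS2 and -5.86 for SFRP4. Without PO 1 the log2 difference was 3.58 for PTGIS. Without PO 2 the log2 difference was 4.14 for ADAMTS8, 7.56 for AGPAT4, 6.55 for ANGPT2, 3.44 for BTG2, 4.79 for CCL2, 11.16 for DEFB4B, 9.81 for EDN2, 4.72 for IL1RN, 5.42 for IRX3, 5.90 for LOX, 1.53 for MMP9, 10.48 for NIM1K, 1.92 for PKIB and 2.21 for PTGIS. Without PO 3 the log2 difference was 2.87 for CTSL. Without PO 4 the log2 difference was -8.42 for ANO2, -6.36 for CCNB1, 10.04 for CGA, 9.91 for EDN2, -6.04 for FANCD2, 6.13 for IL1RN, -8.71 for KIF20A, 3.44 for PKIB and 5.81 for SERPINB2. Without PO 5 the log2 difference was 8.40 for EDN2. For GSTA1, LOX and NIM1K, bounded by saturation or background, these are measured values and no bounds.

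Levels at the late dominant stage, which entered only an alternative fit of all 15 granulosa arrays, varied between arrays in the same genes. On LD 4 and LD 5 MKI67 was at -1.01 and -0.74, close to the ED arrays, and on LD 1, LD 2 and LD 3 at -2.79, -5.70 and -6.90. PTGS2 stayed at -0.41, -0.23, -1.15, -1.05 and -1.27 on the LD arrays, all in or near the ED range, while HAS2 was at 4.35, 0.43, -0.45, -2.41 and -9.50.

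The same stages of the theca wall were set beside the granulosa changes. The difference of the changes, granulosa minus theca wall, was tested on 20 arrays, 5 for each layer and stage. TW ED 4 and TW PO 4 had 1317 and 1718 outlier spots, and their repeated probes had a median CV of 28.3% and 16.2%. The other arrays compared had at most 593 outlier spots and a CV of 3.36% to 5.99%. Without TW ED 4 9281 features differed, and without TW PO 4 8294. Of 27053 features 9083 (33.6%) differed, 4290 (15.9%) towards higher in granulosa and 4793 (17.7%) towards lower, and among features with a symbol 32.6% differed, 17.0% towards higher and 15.6% towards lower. With each array centred on its median the split was 5814 and 3514, so that the balance of directions depends on the scaling. The layers were hybridised on different slides at these stages, so for levels layer and slide cannot be told apart. Each slide held the PO and the ED array of its layer, so a slide effect shared by both stages cancels in the changes. With slide as a block 8685 features differed. A slide effect that differs between stages cannot be told apart from layer.

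**Figure D5:**
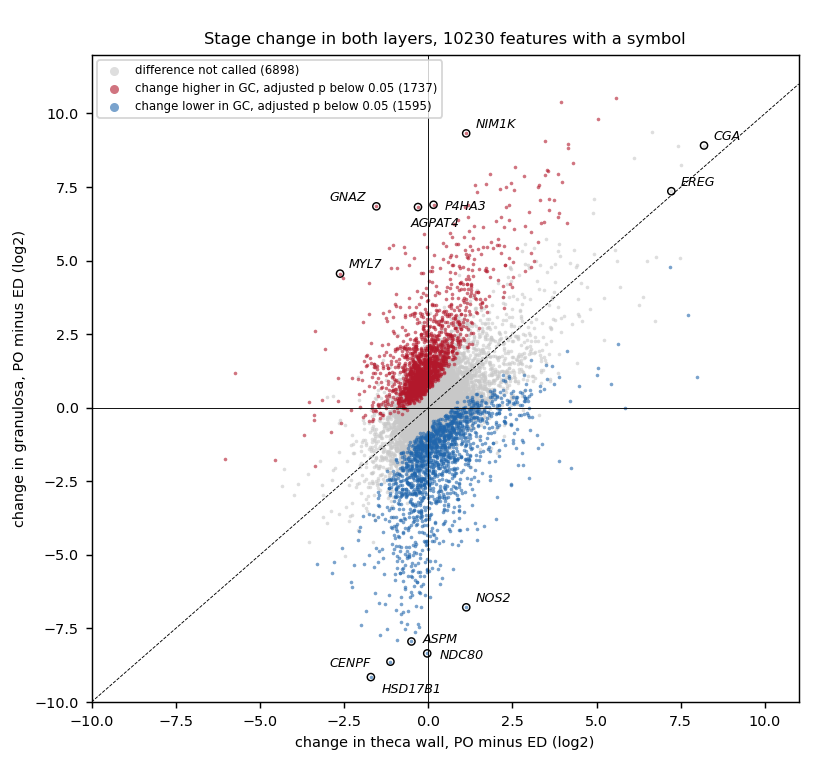
Change from ED to PO in the theca wall (horizontal axis) and in granulosa cells (vertical axis), both in log2 units, for 10230 features with a gene symbol, coloured where limma called the difference of the changes. NIM1K, GNAZ, MYL7, AGPAT4 and P4HA3 lie high on the granulosa axis, at -2.62 to 1.13 on the theca wall axis, HSD17B1, CENPF, NDC80, ASPM and NOS2 lie low on it, at -1.71 to 1.13 in the theca wall, and CGA and EREG lie near the dashed line of equal change.

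Of the 31 lists, cell division had the highest share of genes that differed between layers. For 61 of its 65 genes the change was lower in granulosa, where the median was -5.28, than in the theca wall, where it was -0.36. Stage means of NDC80 differed by -0.03 in the theca wall, and the difference between layers was -8.32 ± 0.49 SE (adjusted p = 5.78e-09). CENPF and ASPM differed by -7.51 and -7.44. DNA replication followed with 46 of 61 genes lower. HSD17B1 differed by -1.71 in the theca wall (difference -7.45 ± 1.12 SE). NOS2, inducible nitric oxide synthase, was at 2.01, 1.79, 2.51, 3.19 and -0.85 in granulosa at ED and -5.52, -5.15, -5.59, -3.78 and -5.22 at PO. It fell 110.1-fold there with no overlap and differed by 1.13 between stages in the theca wall (difference -7.91 ± 0.90 SE, adjusted p = 4.91e-06).

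On the rising side, GNAZ, a G protein subunit, was below background on all GC ED arrays and at -1.65, -1.93, -3.41, -1.24 and -2.25 at PO, at least 30.6-fold higher. It differed by -1.54 between stages in the theca wall, and the layers differed by 8.39 ± 0.57 SE. Layer differences of genes at background in granulosa, such as GNAZ, NIM1K, NDC80 and CENPF, use the values measured there and are not exact. NIM1K (8.20), MYL7, a myosin light chain (7.18), AGPAT4 (7.13) and P4HA3, a collagen hydroxylase (6.74), had the next largest differences. PLAU differed by 1.40 between stages in the theca wall, and its layer difference was 6.17 ± 1.12 SE (adjusted p = 0.000408). Among lists, 30 of 46 respiratory chain genes, 17 of 40 of glycolysis and 15 of 34 of cholesterol (3 lower) changed towards higher in granulosa, and 11 of 34 hormone receptor genes towards lower.

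For 5 further genes, chosen after their values were seen, no difference between layers was called. EREG differed by 7.22 between stages in the theca wall and CGA by 8.19, and the layer differences of 0.14 ± 1.56 and 0.72 ± 1.40 SE were not called (adjusted p = 0.955 and 0.724). PLAT, NR4A1 and BTC differed by 4.93, 2.76 and 2.46 between stages in the theca wall, with layer differences of 0.30 ± 0.81, 0.30 ± 0.71 and 0.40 ± 0.52 SE that were not called. In the deposited value table the layer difference of BTC was 1.57 and called (adjusted p = 0.000171). With the normexp background the layer difference of PLAT was -2.58 and was called (adjusted p = 0.00287), so its direction depends on the background correction. A missed call does not show equal change, since the standard errors leave room for differences of more than 1 log2 unit.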

How the data were processed

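Total RNA of each sample (500 ng) was amplified from oligo-dT primers, labelled with Cy3 and hybridised to 1 array, per the labels' protocols. The deposited intensity values are spot signals from Agilent Feature Extraction (9.1 per the submitters' processing notes, a later version per the file headers), background-subtracted by that software. The deposited log2 table, an alternative here, was normalized between arrays by the authors in a way not given in the sources used here (column medians 7.40 to 7.41).

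Here log2 of the processed signal minus the 75th percentile of each array was used, without control and outlier spots. Spots of a probe were averaged, and the brightest probe over 34 arrays stood for a gene symbol. Of 43603 probes 22191 had a symbol, from the files or RefSeq tables. A probe entered if well above background on at least 5 of 10 arrays (of 20 for layers). Stages were compared with limma 3.58.1 (R 4.3.3), tested on simulated data, and a feature was called where its p-value, adjusted by Benjamini and Hochberg's method over all features, lay below 0.05. "At least" folds set the bright stage's mean against the dimmest signal well above background, or take a saturated spot at its value. They hold for the processed signal only. With normexp the log2 rise was 0.25 for BCL2L1, 0.79 for DES and 0.73 for FZD4, below their bounds. The gene lists and the arrays compared were chosen with earlier results of these data known. Genes are named by rule: the 12 largest risers and 12 largest fallers without overlap, up to 5 called each way per list or more where needed, a fixed set of ovarian genes, and the 5 largest layer differences each way; genes without a call outside that set, and the layer values of PLAU, EREG, CGA, PLAT, NR4A1 and BTC, were chosen after their values were seen. ESR2 and TOP2A had no probe of that name. Alternatives were quantile, median, normexp and deposited scalings, other filters, slide as a block, all 15 granulosa arrays, probe means, limma's treat and single arrays left out. Promoter motifs were not analysed here, and some genes that the rule names are not reported here.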

Additional observations from a re-analysis of the deposited data

Results flagged for a closer look

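In each group of 5 arrays the gap between the array at either end and its neighbour was divided by the whole range of the group, and a ratio above 0.71 marked the array as far from the others. Chance marks about 1 in 20 groups. Of 602 groups of arrays, over 301 named genes in both stages, 46 were marked, and the ratios are given in brackets. Groups with fewer than 5 values, such as INHBA at PO and CCND2 at ED, are among the 602 but could not be marked.

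PO 4 was far from the other PO arrays for 16 genes: it was low for ACVR2A (0.774), ANGPT1 (0.781), CXCL1 (0.737), CXCR2 (0.782), OLR1 (0.796), SEMA3E (0.867) and STAR (0.817), and it was high for ANO2 (0.841), ASPM (0.763), CLDN12 (0.777), COL4A5 (0.714), FST (0.741), ITIH1 (0.793), KIF20A (0.776), NOS2 (0.758) and TRIM10 (0.751). PO 2 was far from them for 11 genes: it was low for ADAMTS4 (0.712), ADAMTS8 (0.715), AGPAT4 (0.837), E2F5 (0.756), FSHR (0.719), NIM1K (0.879), PLAU (0.903) and PTGS2 (0.915), and it was high for CCND3 (0.750), CYP11A1 (0.772) and RRM2 (0.762). PO 1 was low for CALR (0.713). Among the ED arrays, ED 5 was marked most often, for 8 genes: it was low for DES (0.721), GLI1 (0.748), HSD17B1 (0.740), LDHA (0.832), SFRP4 (0.879), VEGFA (0.739) and VEGFC (0.729), and it was high for FOXO1 (0.747).

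ED 1 was high for CD163 (0.782) and CDKN1B (0.971). ED 2 was low for ERRFI1 (0.770), PDE7B (0.729) and SDHA (0.712), and high for SERPINB2 (0.794). ED 3 was high for TNFAIP6 (0.767). ED 4 was low for RPL35 (0.740), and high for LYZ (0.756) and TJP1 (0.749). ED 1 also had the lowest share of spots well above background, 64.8% against 71.5% to 74.0% on the other ED arrays (ratio 0.726).

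The change from ED to PO differed between granulosa and theca wall for 9083 features by the limma contrast of all 4 groups. Among the genes named, the difference (granulosa change minus theca wall change, log2) was -8.32 for NDC80, -7.91 for NOS2, -7.51 for CENPF, -7.45 for HSD17B1, -7.44 for ASPM, 6.17 for PLAU, 6.74 for P4HA3, 7.13 for AGPAT4, 7.18 for MYL7, 8.20 for NIM1K and 8.39 for GNAZ.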

How the results depend on the processing

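The number of features called, 11440, stayed between 8998 and 12470 under the other scalings, filters, fits and left-out arrays (10078 to 12054 with 1 array left out), and was 3933 (1693 higher, 2240 lower) when limma's treat required a log2 change above 1. The median over all features was 0.04, and -0.14 with normexp. The number that differed between the layers, 9083, ran from 6888 to 9328, and from 8008 to 9949 with 1 array left out, and its median over all features went from -0.12 to -0.26 with normexp and to 0.15 with median centring. Granulosa arrays on 1 slide did not deviate together (correlations -0.04 to 0.09), so the numbers do not pair them, and with slide as a replicate block 10650 features were called between stages and 8685 between layers. Of 301 genes named, 173 kept direction and call under every alternative, 113 kept the direction but not the call, and 15 turned. Among genes called in the report, quantile normalization ended the calls of CTSL, HYOU1, IGF1, PKIB, RPL19, RPL35, RPS9, RUNX2, SDHA and SQLE. The deposited table ended the same calls except that of IGF1. Median centring ended those of HYOU1, IGF1, NDUFS1, NRIP1 and PDIA4. Leaving out PO 2 and PO 4 ended 15, among them FN1 and MMP19. The fit of all 15 granulosa arrays ended 15, among them CYP19A1 and MMP19. Slide as a block ended 14, among them CALR, INHBA, RPL19, RPL35 and RPS9. No filter on dim probes ended 12. Probe means ended those of GLI1 and LAMC1, and treat ended 94. Most that turned had not been called, and the cause was not tested: BUB3 was -0.28 with quantile normalization and -0.24 in the deposited table, NR5A2 -0.34, -0.35 and, with normexp, -0.0086, PGR 0.23 as the mean of its probes, and CD163, RGS5 and RUNX1 -0.037, -0.079 and -0.21 with normexp. RUNX2 and LMOD1, which were called, were -0.18 and -0.12 with normexp. With PO 2 and PO 4 left out together AURKA was 0.49, CXCR2 0.15, GJA1 0.032, KIF18A 0.15 and PGR 0.17, and with 1 array left out AURKA ran from -0.73 to 0.088, BUB3 from -0.059 to 0.10, CSF1R from -0.59 to 0.013, CXCR2 from -0.44 to 0.12, ITGB2 from -0.37 to 0.26, LYZ from -0.041 to 0.77, NR5A2 from -0.14 to 0.20 and PGR from -0.53 to 0.10. The layer difference of EREG was -0.56, -0.99 and -0.46 with quantile normalization, normexp and the deposited table, and -0.74 to 1.02 with 1 array left out, that of CGA was -0.13, -2.19 and -1.68, and that of PLAT was -0.35, -2.58 (called) and -1.59, and -0.077 to 0.67 with 1 array left out. That of NR4A1 was -0.21 with quantile normalization, -0.064 in the deposited table and -0.10 to 0.67 with 1 array left out. With normexp, list medians shrank for cell division to -3.20, immediate early genes to 1.10, the ovulatory cascade to 0.66, proteases to 0.58, cytokines to 0.35, apoptosis regulators to 0.12 and prostaglandins to 0.03. Signals at background or at saturation bound the size of a change, and 5 arrays a stage limit its precision.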
